A study of Homo sapiens with 12 samples.

Results

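The desmosome genes were examined in 2 Ewing sarcoma cell lines in which the AP-1 subunits c-Jun and c-Fos can be switched on together. They were 10 genes chosen by symbol: the desmosomal cadherins DSG2, DSG3, DSC2 and DSC3, the plaque genes JUP, PKP1, PKP2, PKP3 and DSP, and the membrane protein gene PERP. All 10 were found by gene identifier among the 58721 genes of the count table, and 6 of them passed the low-count filter that left 21013 genes for testing. The filter removed the 4 cadherins, so counts over tested members leave them out.

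Desmosomes are junctions that fasten the intermediate filaments of neighbouring cells to each other, and they are best known from epidermis, other epithelia and heart muscle. Desmogleins (DSG) and desmocollins (DSC) are cadherins that bind each other across the gap between cells. Inside the cell their tails are held by plakoglobin (JUP) and the plakophilins (PKP), and desmoplakin (DSP) ties this plaque to keratin, desmin or vimentin filaments. PERP is a membrane protein of desmosomes and a known target of p53 and p63. Ewing sarcoma is a bone and soft tissue tumour, not an epithelial one, and is driven by a fusion such as EWS-FLI1.

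EW8 and TC71 cells both carried the lentiviral Tet-On system, in which doxycycline drives a joint c-Jun and c-Fos transgene. They were grown for 72 h with solvent alone (vehicle, DMSO; genotype labelled WT although the construct was present) or with doxycycline at 2000 ng/ml (genotype labelled AP1_overexpression). Each of the 4 groups had 3 libraries of polyadenylated RNA, 12 in all, and the total counts ran from 42860665 to 60853649 per library. The sources do not say that replicates were separate cultures, so p-values measure the spread between these libraries, which may be technical. Doxycycline-treated cells without the transgenes were not analysed here, so what doxycycline does by itself and what the 2 proteins do cannot be told apart. In bulk RNA, more cells with a transcript and more transcript per cell cannot be told apart either.

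The induction was seen in every library. JUN rose from 21.59 ± 2.61 to 473.7 ± 44.8 CPM (read counts scaled to a common library size; mean ± SD, n = 3) in EW8 and from 20.74 ± 4.01 to 755.5 ± 54.6 CPM in TC71. FOS rose from 36.76 ± 0.814 to 1078 ± 72 CPM in EW8 and from 11.67 ± 0.426 to 1580 ± 120 CPM in TC71, reads of the transgene and of the endogenous gene being summed. The adjusted p was at most 1.93e-15 for these 4 differences (edgeR). TC71 vehicle replicate 1 stood apart from the other libraries of its group, with a chi-square per gene of 58.9 and 56.1 against replicates 2 and 3, where the other replicate pairs of the study gave 5.24 to 10.2. It had the lowest DSP, JUP and PERP values of its group, and values without it are given beside those it moved most.

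The stretch just before the transcription start is shown for 3 members. RefSeq start sites were matched for 8 of the 10 members, and PKP2 and PKP3 had no entry. In windows of 300 bases, from 250 before to 50 after the start, 4 short motifs were searched on both strands: the AP-1 site TGANTCA, the CRE TGACGTCA, the ETS repeat GGAAGGAA and the E-box CACCTG that SNAI and ZEB repressors bind. PERP is shown because it held the only AP-1 match among the 8 matched members, DSP because it rose about as much in both lines without a match, and DSG2 because its start was as rich in G and C while the gene stayed near 0. Each sequence is the 250 bases before the start, 5′ to 3′ on the strand of the gene, from RefSeq on GRCh38.p14, with motif matches in capitals.
PERP (chr6:138107420-138107669, minus strand): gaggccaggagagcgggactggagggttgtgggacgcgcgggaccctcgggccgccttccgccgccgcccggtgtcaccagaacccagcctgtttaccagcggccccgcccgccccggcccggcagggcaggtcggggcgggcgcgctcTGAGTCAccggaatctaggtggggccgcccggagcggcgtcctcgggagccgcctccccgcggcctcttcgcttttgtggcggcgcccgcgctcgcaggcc
DSP (chr6:7541421-7541670, plus strand): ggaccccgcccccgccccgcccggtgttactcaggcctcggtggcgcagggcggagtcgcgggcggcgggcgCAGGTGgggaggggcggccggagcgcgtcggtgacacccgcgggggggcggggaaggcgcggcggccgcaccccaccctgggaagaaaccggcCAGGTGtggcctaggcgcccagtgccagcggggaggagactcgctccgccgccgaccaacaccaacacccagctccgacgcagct
DSG2 (chr18:31497927-31498176, plus strand): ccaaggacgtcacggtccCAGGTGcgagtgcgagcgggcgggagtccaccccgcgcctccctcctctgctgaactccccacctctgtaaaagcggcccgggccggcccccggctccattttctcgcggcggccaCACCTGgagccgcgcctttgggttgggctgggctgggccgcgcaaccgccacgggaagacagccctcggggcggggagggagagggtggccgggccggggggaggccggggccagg

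In PERP the capitals mark TGAGTCA at position -101 from the start. In all, 7.71% of 35116 RefSeq promoters of this length held an AP-1 match. DSP held 2 E-boxes, at -178 and -85, and DSG2 held 2, at -232 and -116. An E-box was also present in one of the 2 start windows of DSC2 and in one of the 2 of JUP, and 20.6% of all promoters held one. None of the 8 matched members held a CRE (1.85% of all promoters) or the ETS repeat (3.67%). GC content was 77% for DSP, 77% for PERP and 76.7% for DSG2, above a median of 58.7% over all promoters, and 44% for DSG3. These matches are descriptions of letters in these windows only.

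**Figure D1:**
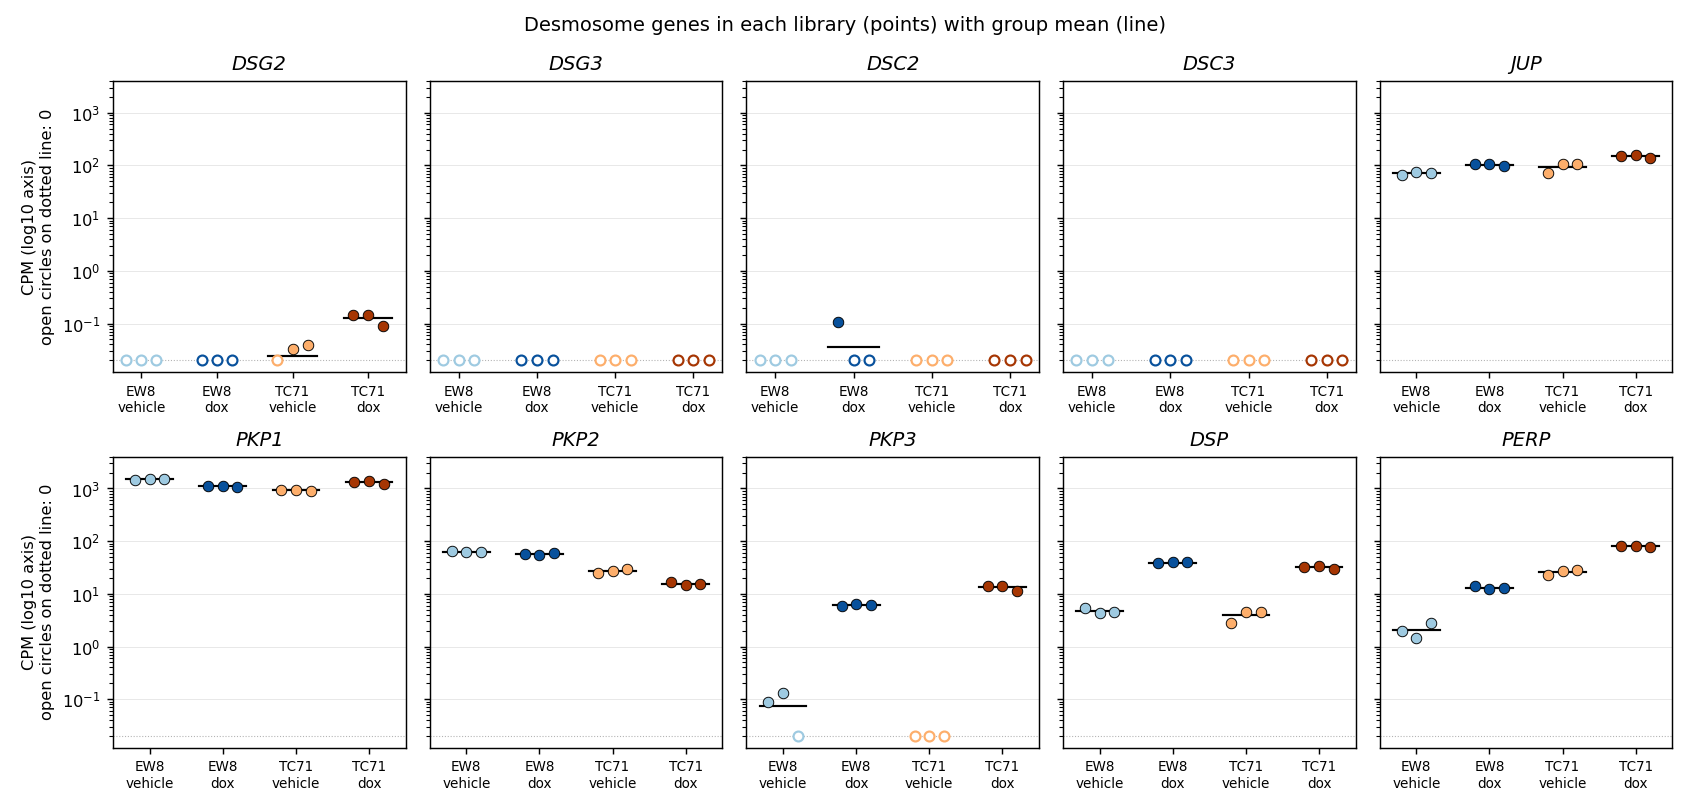
Level of each of the 10 desmosome genes in CPM on a log10 axis, with a point for each library, a line for the mean of the 3 libraries of a group, and open circles on the dotted line for libraries with 0 counts (dox, doxycycline). The 4 cadherins lie at or near 0 in every group, and PKP1 lies between 910.1 and 1528 CPM in all 12 libraries. In both lines DSP, PKP3, PERP and, by less, JUP are higher in all doxycycline libraries than in all vehicle libraries. PKP1 and, at the floor, DSG2 are so in TC71 alone. How many of all tested genes separate in this way was not counted. Separation also occurred without a passed test, as for PKP2 in EW8, so it only describes these libraries.

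The adhesive cadherins were almost absent from both lines, with or without doxycycline. DSG3 and DSC3, the pair typical of the basal layers of stratified epithelium, had 0 counts in all 12 libraries. A count of 0 allows up to 6 counts, or 3 read pairs, which is 0.09663 to 0.1454 CPM depending on the library, and this floor covers counting error only. DSC2, the most widely expressed desmocollin, had 6 counts in EW8 doxycycline replicate 1 and 0 in the other 11 libraries. DSG2, the most widely expressed desmoglein, had 0 counts in all 6 EW8 libraries, counts of 0, 2 and 2 in the TC71 vehicle libraries and counts of 6, 6 and 4 in the TC71 doxycycline libraries. The TC71 doxycycline counts lay above those with vehicle, but both groups were at the floor, so no fold is given. An antisense gene, DSG2-AS1, overlaps 171 bp (2.76%) of the DSG2 exons, and it had 0 counts throughout.

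The same held for the whole locus. All 7 desmosomal cadherin genes lie side by side on chromosome 18 between 30990008 and 31549008 of hg38, a stretch of 559.0 kb. DSC1, DSG1 and DSG4, the paralogs that are not members, were at the floor too, and the 7 genes together had 28 counts over the 12 libraries. Among all 14 annotated genes of the stretch, the highest count of any gene in any library was 6.

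Plakoglobin (JUP), an armadillo protein shared by desmosomes and adherens junctions, was well expressed and rose in both lines, by 1.44-fold and 1.57-fold. In EW8 it measured 65.61, 76.58 and 72.64 CPM with vehicle and 105, 105.4 and 98.56 CPM with doxycycline. In TC71 it measured 73.02, 106.3 and 106.2 CPM with vehicle and 149.1, 161.2 and 137.4 CPM with doxycycline. Within each line the lowest doxycycline library exceeded the highest vehicle library. The log2 fold change was 0.52 ± 0.11 (SE) in EW8 and 0.65 ± 0.11 in TC71 (adjusted p = 0.000661 and 6.99e-05, edgeR quasi-likelihood test with Benjamini-Hochberg adjustment). Both lay under the limit of 1 on the log2 scale that a call required. Without TC71 vehicle replicate 1 the TC71 value was 0.41 (adjusted p = 1.67e-05, edgeR), and the difference between the lines, 0.12 in favour of TC71 (95% interval -0.199 to 0.447, adjusted p = 0.661, edgeR), became -0.16 (adjusted p = 0.236, edgeR).

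PKP1 was by far the most abundant member and moved in opposite directions in the 2 lines. Plakophilin 1 strengthens desmosomes in the upper epidermis and is also found in the nucleus. In EW8 the libraries held 1450, 1528 and 1489 CPM with vehicle and 1113, 1092 and 1072 CPM with doxycycline, so that every doxycycline library was lower. In TC71 they held 941.4, 926.8 and 910.1 CPM with vehicle and 1326, 1370 and 1220 CPM with doxycycline, so that every doxycycline library was higher. On the log2 scale the change was -0.45 ± 0.05 (SE; adjusted p = 4.16e-07, edgeR) in EW8 and 0.50 ± 0.05 (adjusted p = 9.01e-08, edgeR) in TC71. The difference between these responses was 0.94 ± 0.07 (95% interval 0.8 to 1.08, adjusted p = 1.4e-08, edgeR). All 3 values were past the p limit and under the fold limit, and without TC71 vehicle replicate 1 the last 2 were 0.43 and 0.83. Per kb of exon, the scale on which genes can be compared, PKP1 stood at 239.7 and 175.8 CPM per kb in EW8 with vehicle and doxycycline and at 149.1 and 210.1 CPM per kb in TC71. That placed it between the 141st and the 254th highest of the 21013 tested genes in all 4 groups.

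PKP2, the plakophilin of heart muscle and simple epithelia, was higher in EW8 and fell in TC71. The EW8 libraries held 64.71, 61.39 and 61.92 CPM with vehicle and 58.19, 55.06 and 60.01 CPM with doxycycline, which did not overlap. The EW8 difference on the log2 scale was -0.12 ± 0.08 (SE; 95% interval -0.282 to 0.0461, adjusted p = 0.247, edgeR). The TC71 libraries held 25.05, 27.34 and 30.24 CPM with vehicle and 16.58, 14.6 and 15.47 CPM with doxycycline. Every TC71 doxycycline library lay below every vehicle library, and the difference of -0.82 ± 0.08 (adjusted p = 1.45e-07, edgeR) did not reach the fold limit, nor did the -0.97 found without TC71 vehicle replicate 1. The responses differed by -0.71 ± 0.11 (adjusted p = 0.000183, edgeR), and by -0.90 without TC71 vehicle replicate 1.

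PKP3, a plakophilin found in most epithelia, went from the floor to a clear level in both lines. The EW8 vehicle libraries had 4, 6 and 0 counts, and the EW8 doxycycline libraries had 330, 318 and 266, the latter being 5.907, 6.284 and 6.075 CPM. The TC71 vehicle libraries had 0 counts each, and the TC71 doxycycline libraries had 583, 584 and 507, the latter being 14.13, 13.96 and 11.53 CPM. The groups were far apart in both lines. In EW8 the pooled ratio was 88.8, with an exact 95% counting interval of 37.8 to 275 on 457 against 5 read pairs, and the edgeR adjusted p was 6.52e-10. So few vehicle counts leave that ratio open to single libraries, and it was 103, 152 and 54.9 without EW8 vehicle replicate 1, 2 and 3. In TC71, where vehicle libraries were all at 0, the mean with doxycycline was at least 113-fold higher than 6 counts in the vehicle library with the highest such floor (adjusted p = 1.67e-11, edgeR). The fitted difference of the responses was past both limits (adjusted p = 0.00539, edgeR), but its size depends on how counts of 0 are handled and is no measure of how far the lines differ. With doxycycline alone, where both lines were well counted, PKP3 was higher in TC71 by 1.12 ± 0.22 on the log2 scale (adjusted p = 0.000372, edgeR).

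DSP, the plakin that links the plaque to intermediate filaments, rose about 8-fold in both lines. In EW8 it measured 5.278, 4.272 and 4.599 CPM with vehicle and 38.34, 40.08 and 39.42 CPM with doxycycline. In TC71 it measured 2.75, 4.445 and 4.58 CPM with vehicle and 32.72, 33.38 and 29.28 CPM with doxycycline. The doxycycline libraries lay far above every vehicle library, and the lowest vehicle value was that of TC71 replicate 1. The log2 fold change was 3.06 ± 0.15 (SE; 8.33-fold, adjusted p = 5.68e-12, edgeR) in EW8 and 3.01 ± 0.15 (8.08-fold, adjusted p = 6.28e-12, edgeR) in TC71, or 2.74 without TC71 vehicle replicate 1. The responses differed by -0.045 (95% interval -0.469 to 0.38, adjusted p = 0.938, edgeR), and by -0.37 without TC71 vehicle replicate 1 (adjusted p = 0.0787, edgeR). With doxycycline the TC71 libraries all lay below those of EW8, but the difference of -0.31 did not pass the test (adjusted p = 0.0503, edgeR). That p ran from 0.000435 to 0.171 over the alternative settings, and was 0.00238 without TC71 vehicle replicate 1.

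PERP rose in both lines from very different starting levels. In EW8 it measured 1.94, 1.482 and 2.766 CPM with vehicle and 13.82, 12.29 and 13.11 CPM with doxycycline. In TC71 it measured 22.38, 27.55 and 27.79 CPM with vehicle and 82.42, 79.7 and 76.65 CPM with doxycycline. The 4 groups did not overlap, and TC71 with vehicle lay above EW8 with doxycycline. The log2 fold change was 2.64 ± 0.15 (SE; adjusted p = 9.25e-11, edgeR) in EW8 and 1.62 ± 0.12 (adjusted p = 4.01e-09, edgeR) in TC71, or 1.44 without TC71 vehicle replicate 1. The TC71 response was smaller by 1.03 ± 0.20 on the log2 scale (adjusted p = 0.00103, edgeR), just past the fold limit. That call was lost without EW8 vehicle replicate 1 (-0.98), EW8 vehicle replicate 2 (-0.84) or TC71 vehicle replicate 2 (-0.98), at adjusted p = 0.00242 to 0.00492 (edgeR), and it held at -1.24 without TC71 vehicle replicate 1. The pseudogenes PERPP1 and PERPP2 had 0 counts.

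**Figure D2:**
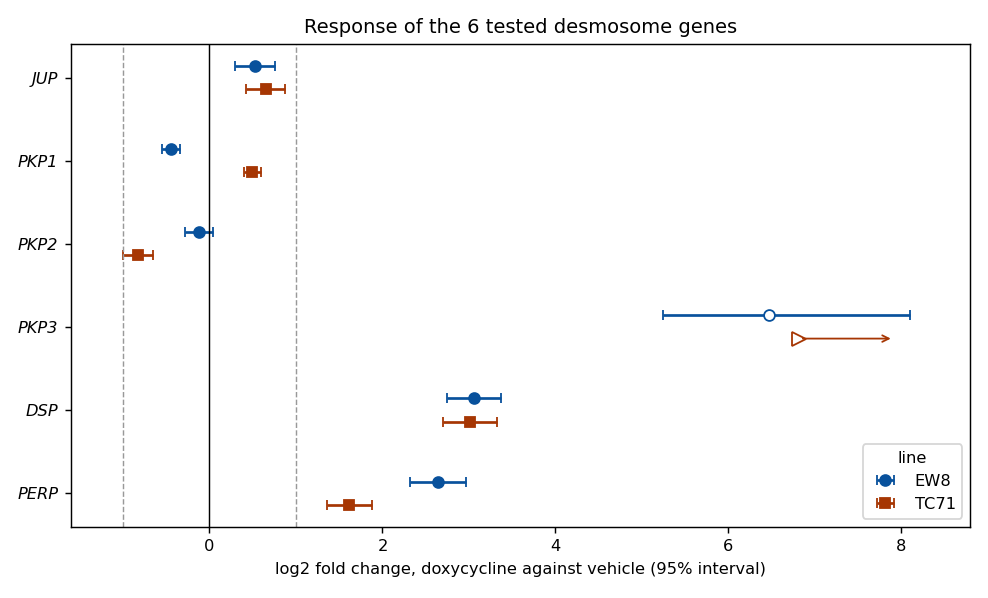
Log2 fold change of doxycycline against vehicle with its 95% interval for the 6 tested desmosome genes in EW8 (blue circles) and TC71 (brown squares), with dashed lines at the fold limits of -1 and 1. Filled points are edgeR estimates, the open circle is the pooled EW8 ratio of PKP3 with its counting interval, and the arrow starts at the lower bound for PKP3 in TC71. DSP lies at about 3 in both lines, PKP1 lies on opposite sides of 0, and JUP and PKP2 stay within the limits.

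Counted over the members, 3 of the 6 tested were called higher with doxycycline in each line, and these were DSP, PKP3 and PERP in both, while 0 were called lower. PKP3 was at the floor in both vehicle groups and passed the low-count filter only through its doxycycline libraries. Its calls followed from that selection and are no separate support. Under a filter of 10 counts in every library, which removed PKP3, the members called higher were DSP and PERP in each line. The tested genes as a whole were called higher at 11.4% in EW8 and 12.3% in TC71, and lower at 3.38% and 3.67%. By the adjusted p alone, 4 members were higher and 1 was lower in EW8 (all tested genes, 21.9% and 22%), and 5 were higher and 1 was lower in TC71 (25.1% and 20.4%). At an unadjusted p under 0.05 the counts of lower members were likewise 1 and 1, and DESeq2 also called 0 lower in both lines. The median log2 fold change of the 6 tested members, PKP3 included, was 1.58 in EW8 and 1.13 in TC71, where that of all tested genes was -0.031 and 0. Without PKP3 the middle member was JUP in both lines, at 0.52 in EW8 and 0.65 in TC71, under the fold limit. As DSG2, DSG3, DSC2 and DSC3 could not be tested, these counts describe the plaque genes and PERP only. In the difference of the responses, PKP3 was called higher in TC71 (all tested genes, 4.18%) and PERP lower (2.87%). By the adjusted p alone, PKP1 joined PKP3 (all tested genes, 12.2%) and PKP2 joined PERP (7.07%).

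The same members were above the floor in both lines, but the levels of some differed. With vehicle, 1 member was called higher in TC71 than in EW8, PERP by 3.63 ± 0.15 on the log2 scale (adjusted p = 4.63e-13, edgeR; all tested genes, 11.6%). Lower in TC71 were 2 members (all tested genes, 18.9%): PKP2, by -1.19 ± 0.08 (adjusted p = 3.19e-10, edgeR), and PKP3, which was at the floor in both lines and has no fold. PKP1 was also lower in TC71, by -0.68 ± 0.05 (adjusted p = 5.59e-10, edgeR), and JUP higher, by 0.41 ± 0.11 (adjusted p = 0.00307, edgeR), both under the fold limit. Without TC71 vehicle replicate 1 the JUP difference was 0.68 (adjusted p = 2.07e-09, edgeR). DSP did not pass the test, at -0.26 (95% interval -0.582 to 0.0616, adjusted p = 0.152, edgeR), and changed sign to 0.047 without TC71 vehicle replicate 1 (adjusted p = 0.768, edgeR). Without that library PERP, PKP2 and PKP1 stood at 3.83, -1.01 and -0.59.

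With doxycycline, 2 members were called higher in TC71 than in EW8 (all tested genes, 12.6%), PERP by 2.60 ± 0.13 (adjusted p = 5.45e-12, edgeR) and PKP3 as given above. PKP2 was called lower (all tested genes, 18.4%), by -1.89 ± 0.08 (adjusted p = 8.52e-13, edgeR). PKP1 had changed sides and was higher in TC71 by 0.26 ± 0.05 (adjusted p = 0.000126, edgeR), and JUP was higher by 0.53 ± 0.11 (adjusted p = 0.000299, edgeR), both under the fold limit. Ordered by level, PERP ran from TC71 with doxycycline through TC71 with vehicle and EW8 with doxycycline to EW8 with vehicle, with no overlap between neighbours. For JUP, TC71 with vehicle overlapped both EW8 groups. For DSP, the 2 vehicle groups overlapped each other.

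The make-up of the plaque transcripts, compared per kb of exon, changed mainly against DSP. PKP1 was 94.13% of the summed level of PKP1, PKP2, PKP3 and the related PKP4 with vehicle and 92.67% with doxycycline in EW8, and 90.13% and 93.87% in TC71, so it predominated in every group. PKP4, which is not a member and is also found at adherens junctions, was second in TC71, at 7.49% with vehicle and 3.57% with doxycycline, and held 2.35% and 2.14% in EW8. With doxycycline the share of PKP3 was 0.848% in EW8 and 1.55% in TC71, where it lay above that of PKP2, which went from 2.37% to 0.991%. The ratio of PKP1 to DSP was 518 ± 67.8 (SD, n = 3) with vehicle and 45.2 ± 1.68 with doxycycline in EW8, and 406 ± 131 and 66.7 ± 0.925 in TC71. The TC71 vehicle value rests partly on replicate 1, at 556 against 339 and 323 in the other libraries. The ratio of JUP to DSP went from 31.4 ± 5.66 to 5.36 ± 0.244 in EW8 and from 50.1 ± 3.61 to 9.58 ± 0.278 in TC71. Vehicle and doxycycline libraries of a line did not overlap in these ratios of PKP1 and JUP to DSP. PKP2 started at 10.4 ± 2.29 times the level of DSP in TC71 and ended below it, at 0.703 ± 0.0682. PERP stayed near the level of DSP in EW8, at 1.03 ± 0.333 with vehicle and 0.784 ± 0.0632 with doxycycline. These EW8 libraries overlapped, at 0.816 to 1.42 with vehicle and 0.721 to 0.848 with doxycycline. In TC71 PERP lay above DSP throughout, at 16 ± 2.73 times its level with vehicle and 5.9 ± 0.272 times with doxycycline. These ratios come from the same counts as the fold changes above and were not tested.

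**Figure D3:**
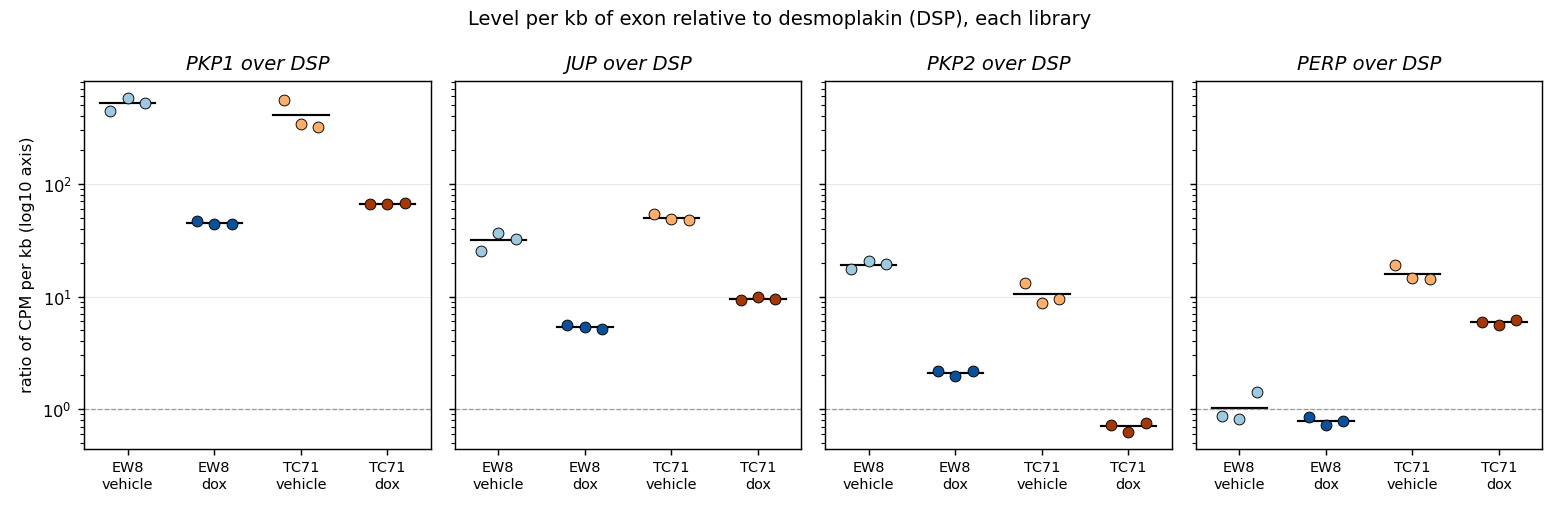
Ratio of the CPM per kb of exon of PKP1, JUP, PKP2 and PERP to that of DSP on a log10 axis, with a point for each library, a line for the group mean and a dashed line where the ratio is 1 (dox, doxycycline). PKP1 lies between 323 and 581 times DSP in the vehicle libraries and between 44.2 and 67.7 times with doxycycline, and PKP2 lies below DSP in the TC71 doxycycline libraries.

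Among 8 other desmosome or desmosome-linked genes, 4 were tested and 4 were at the floor in all 12 libraries. PPL, a plakin that cooperates with DSP in epithelial cells, was called higher in both lines, by 1.64 ± 0.27 in EW8 (adjusted p = 8.25e-05, edgeR) and by 3.61 ± 0.32 in TC71 (adjusted p = 2.42e-08, edgeR), and the TC71 response was larger by 1.97 (adjusted p = 0.00219, edgeR). It reached 3.667 ± 0.618 and 3.561 ± 0.195 CPM. KAZN, whose protein binds PPL, was called lower in TC71, by -1.38 ± 0.21 (adjusted p = 3.18e-05, edgeR), and stood at -0.53 in EW8 (adjusted p = 0.0499, edgeR), under the fold limit. PKP4, named here after its values were seen, fell in both lines under that limit, by -0.56 in EW8 and -0.63 in TC71 (adjusted p = 1.22e-06 and 1.66e-07, edgeR).

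The filaments that desmosomes anchor moved as well. Of 10 intermediate filament genes, 6 were tested. In EW8 5 were called higher and 1 lower (all tested genes, 11.4% and 3.38%), and in TC71 3 higher and 1 lower (12.3% and 3.67%). KRT7 was at the floor in both vehicle groups and passed the low-count filter only through its EW8 doxycycline libraries. Its calls followed from that selection and are no separate support. Among the genes called higher in TC71, only VIM was above the floor there with vehicle. VIM, the vimentin of mesenchymal cells, went from 122.3 ± 4.22 to 1081 ± 13.7 CPM in EW8 and from 528.5 ± 17.1 to 1679 ± 58.8 CPM in TC71. The log2 fold changes of VIM were 3.14 and 1.67 (adjusted p = 1.74e-18 and 2.72e-15, edgeR). DES, the desmin of muscle, measured 0.3061 CPM in EW8 with vehicle and 4.451 CPM with doxycycline (3.83 on the log2 scale, adjusted p = 1.55e-05, edgeR) and in TC71 was at least 3.83-fold above vehicle libraries that were all at 0. KRT7, a keratin of simple epithelia, had 0 counts in the EW8 vehicle libraries and was at least 10.2-fold higher with doxycycline, and it was at the floor in both TC71 groups, so that its call there is 1 of the 3 but has no fold. The gene called lower in both lines was KRT17, a keratin of basal and stressed epithelium, named here with KRT8 and KRT18 after their values were seen. KRT17 fell from 90.06 to 32.94 CPM in EW8 (-1.45, adjusted p = 0.000132, edgeR) and from 4.186 to 0.8364 CPM in TC71 (-2.34, adjusted p = 0.000111, edgeR). The pair KRT8 and KRT18 rose in EW8 by 2.67 and 2.15 on the log2 scale (adjusted p = 3.88e-09 and 3.92e-12, edgeR). In TC71 they stood at 0.22 and 0.17 (adjusted p = 0.444 and 0.0954, edgeR).

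The other junction lists held called genes beside many that were not. Of 12 adherens junction genes, 9 were tested, with 1 called higher in EW8 (all tested genes, 11.4%) and 1 called lower in TC71 (3.67%). Both calls were CDH3. This gene, which encodes P-cadherin, went up by 1.33 in EW8 (adjusted p = 0.000376, edgeR) and down by -1.44 in TC71 (adjusted p = 0.000175, edgeR), and the responses differed by -2.78 (adjusted p = 2.52e-05, edgeR). By the adjusted p alone, 5 adherens genes were higher and 1 lower in EW8 (all tested genes, 21.9% and 22%), and 3 higher and 3 lower in TC71 (25.1% and 20.4%). CTNNA1, named here after its values were seen, rose by 0.99 in both lines (adjusted p = 3.74e-12 and 2.98e-12, edgeR), just under the fold limit. Of 15 tight and gap junction genes, 13 were tested, with 5 called higher in EW8 (all tested genes, 11.4%) and 4 in TC71 (12.3%). None was called lower in either line (3.38% and 3.67%). By the adjusted p alone, 7 were higher and 2 lower in EW8 (all tested genes, 21.9% and 22%). In TC71 7 were higher and 1 lower (25.1% and 20.4%), and an unadjusted p under 0.05 gave the same 2 and 1 lower. CLDN1, named here after its values were seen, fell under the fold limit, by -0.87 in EW8 and -0.46 in TC71 (adjusted p = 1.03e-07 and 0.000181, edgeR). CLDN4, a claudin of tight junctions, measured 0.88 CPM with vehicle and 46.41 CPM with doxycycline in EW8 (5.74 on the log2 scale, adjusted p = 4.68e-13, edgeR) and 0.2548 and 64.42 CPM in TC71 (7.95, adjusted p = 3.21e-14, edgeR).

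Of 13 transcription factor genes known to control epithelial junctions, 11 were tested. In EW8 3 were called higher and 1 lower (all tested genes, 11.4% and 3.38%), and in TC71 4 higher and 1 lower (12.3% and 3.67%). KLF5, an activator in many epithelia, was called higher in both lines, by 4.71 and 3.63 (adjusted p = 3.57e-16 and 4.73e-15, edgeR). SNAI2, a repressor that binds the E-box searched above, was called higher in EW8 by 3.40 (adjusted p = 8.09e-11, edgeR) and stood at 0.77 in TC71 (adjusted p = 0.000814, edgeR), under the fold limit. ZEB1 and SNAI1, repressors that bind the same E-box and are named here after their values were seen, were called higher in TC71, by 1.41 and 1.11 (adjusted p = 9.01e-08 and 0.00023, edgeR). In EW8 they stood at 0.33 and 0.44 (adjusted p = 0.043 and 0.0798, edgeR). Without TC71 vehicle replicate 3, 2 factors in place of 4 were called higher in TC71. KLF4, a factor of epidermal differentiation, was called higher in EW8 by 2.42 (adjusted p = 0.00614, edgeR) and was at the floor in both TC71 groups. The gene called lower in both lines was TP63, a master regulator of stratified epithelium, named here after its values were seen. It fell from 147.7 ± 2.55 to 71.3 ± 0.852 CPM in EW8 (-1.05, adjusted p = 5.49e-05, edgeR) and from 1.843 ± 1.01 to 0.3924 ± 0.216 CPM in TC71 (-2.23, adjusted p = 0.00015, edgeR). Without EW8 vehicle replicate 3, without EW8 doxycycline replicate 1 or by DESeq2, 0 of these factors were called lower in EW8.

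**Figure D4:**
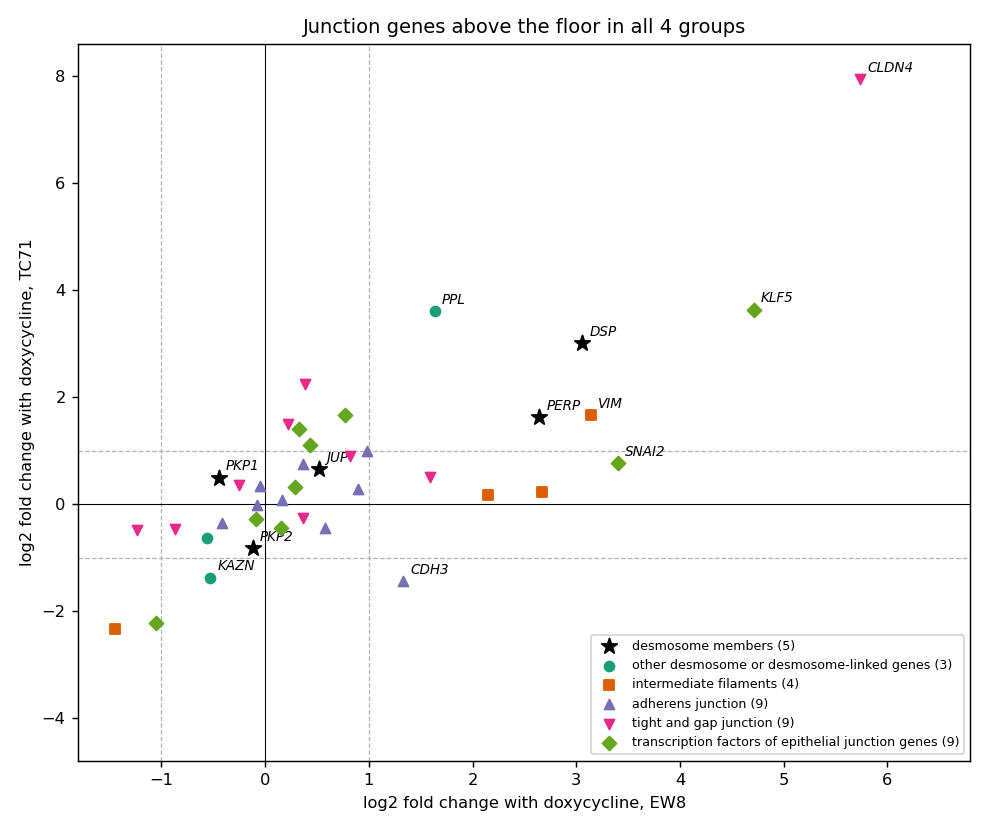
Log2 fold change with doxycycline in EW8 against that in TC71 for 39 of the 40 genes, among 68 junction-related ones, that were tested and above the floor in all 4 groups, with a marker shape for each list, the number plotted in the legend and dashed lines at -1 and 1. DSP and PERP lie in the upper right with PPL, VIM, KLF5 and CLDN4, PKP1 lies left of and above 0, and CDH3 lies at the lower right.

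Markers of Ewing sarcoma cells were present in both lines, and most of them were lower with doxycycline. All 8 were above the floor in all groups, with a summed level of 1368 to 1921 CPM over the 12 libraries. By the adjusted p alone, 6 of the 8 were lower and 1 higher in EW8 (all tested genes, 22% and 21.9%). In TC71 5 were lower and 2 higher (20.4% and 25.1%). With the fold limit, 2 in EW8 and 1 in TC71 were called lower (3.38% and 3.67%). The median log2 fold change of the 8 was -0.756 in EW8 and -0.477 in TC71. The sum was led by CD99, a surface marker of this tumour, which rose by 0.62 in EW8 and 0.44 in TC71 (adjusted p = 3.73e-07 and 1.98e-05, edgeR).

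Markers of other cell types were uneven. The 10 epithelial markers summed to 1.653 to 2.684 CPM with vehicle and 3.676 to 4.407 CPM with doxycycline in EW8, and to 0.6874 to 1.82 and 18.2 to 20.84 CPM in TC71. In each line 2 of 6 tested were called higher (all tested genes, 11.4% in EW8 and 12.3% in TC71). The genes named from these marker lists were chosen after their values were seen. In TC71 the 2 were EPCAM, an epithelial adhesion molecule, which went from 0.7065 to 11.93 CPM (adjusted p = 1.91e-08, edgeR), and ST14, a membrane protease of epithelia, which reached 6.394 CPM from 1 read pair in all vehicle libraries (adjusted p = 1.52e-07, edgeR). In EW8 they were the splicing factors ESRP1 and ESRP2, which reached 0.4113 and 0.6336 CPM. Both were at the floor with vehicle in EW8, as ST14 was in TC71, so only EPCAM was called from a vehicle level above the floor. Genes at the floor in one group were tested only where another group was higher, so these counts of calls are no separate support. CDH1, GRHL2, OVOL2, RAB25, ELF3 and MAL2 were at the floor in both TC71 groups. The 7 keratinocyte markers summed to 167.3 to 173.3 CPM with vehicle and 92.47 to 96.65 CPM with doxycycline in EW8, and to 11.66 to 12.5 and 11.35 to 12.58 CPM in TC71. In EW8 most of this sum was TP63, described above, and KRT10 held 22.77 CPM with vehicle, while DSG1 and KRT1 had 0 counts in all libraries and 4 of the 7 were at the floor in all. The 6 cardiomyocyte markers summed to 14.91 to 17.64 CPM with vehicle and 20.6 to 20.99 CPM with doxycycline in EW8, and to 4.755 to 5.701 and 3.595 to 4.412 CPM in TC71, and MYH7 and MYBPC3 had 0 counts in all libraries. The part of these marker levels in the values of DSP, PKP3 and PERP was not tested.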

How the data were processed

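RNA-seq of 12 libraries was analysed, 3 in each of 4 groups taken from the sample labels. The authors checked reads with FastQC, aligned them with STAR to hg38 and counted them on GENCODE release 29 exons with featureCounts 2.0.1. The deposited values were raw whole-number counts per gene. Per the file headers, the counter ran without options for read pairs or strand. Each mate was therefore counted as a read, and a floor of 6 counts (3 read pairs) per library was used. Of 14 well-counted pseudoautosomal gene pairs, 14 had X and Y copies within 1% of each other, so reads with several places were apparently counted at each, and counts of genes with near-identical copies are uncertain.

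Counts were tested with edgeR 4.0.16 in R 4.3.3 (TMM scaling, filterByExpr, 1 quasi-likelihood fit over all 12 libraries), where the study used DESeq2. Benjamini-Hochberg adjustment ran over 21013 genes. A gene was called where its adjusted p was under 0.05 and its log2 fold change was over 1 in size, the thresholds of the study. CPM used the TMM-scaled totals. CPM per kb used the deposited exon length in base pairs. Tests were checked on simulated data. Total counts were 42860665 to 60853649 per library. Floors and the counting interval of the pooled PKP3 ratio cover counting error only. The other intervals come from the edgeR fit and include the spread between libraries.

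Named were the 10 members, JUN, FOS, and from each junction list the 3 genes with the largest change among those called in either line; 2 tight and gap junction genes that the rule names are not reported here individually. The members and lists were chosen with earlier results of these data known. Alternatives were other scalings and filters, DESeq2 1.42.0, fits on fewer libraries, halved counts, a replicate block, no fold limit and leaving out each library.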

Additional observations from a re-analysis of the deposited data

Results flagged for a closer look

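The response to doxycycline differed between EW8 and TC71 for 4 of the 6 tested members, by an interaction term in the edgeR fit with Benjamini-Hochberg adjustment. These 4 were counted by the adjusted p alone, 2 higher and 2 lower in TC71, where 12.2% and 7.07% of all tested genes were. With the fold limit, PKP3 was called higher and PERP lower, against 4.18% and 2.87% of all tested genes. PKP3 was at the floor in both vehicle groups and was tested only through its doxycycline libraries, so its place in these counts is no separate support. For PKP1 the TC71 response minus the EW8 response was 0.942 on the log2 scale (adjusted p = 1.4e-08), with all 3 libraries lower in EW8 and all 3 higher in TC71. For PKP2 it was -0.707 (adjusted p = 0.000183). For PERP it was -1.026 (adjusted p = 0.00103), and for PKP3 the fitted value was 5.929 (adjusted p = 0.00539), which rests on TC71 vehicle libraries that were all at 0 and is no estimate of size. The JUN and FOS responses, with transgene and endogenous reads summed, were larger in TC71 by 0.73 and 2.21 on the log2 scale (adjusted p = 0.00217 and 6.41e-12), and their part in these values was not tested.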

How the results depend on the processing

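Counts of called members were 3 higher and 0 lower in both lines under other scalings, no low-count filter, DESeq2, halved counts, the fit on the compared groups alone and each of the 12 fits that left out a library. Without a fold limit, 1 member was lower in EW8, while TC71 had 5 higher and 1 lower. In the difference of responses 2 were then higher and 2 lower, and TC71 exceeded EW8 in 2 members with vehicle and 4 with doxycycline. A filter of 10 counts in every library removed PKP3, which left 2 members higher in each line, 0 higher in the difference of responses, 1 lower in TC71 than EW8 with vehicle and 1 higher with doxycycline. The fit on the vehicle groups alone applied the low-count filter to those libraries only. PKP3, with at most 6 counts in any of them, was removed there too, which also left 1 lower. Leaving out single libraries gave 0 to 1 members lower in the difference of responses, as described for PERP. The difference of responses uses all groups, so it has no fit on fewer groups.

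Replicate numbers did not pair the samples: deviations of same-numbered vehicle and doxycycline libraries correlated at -0.028 to 0.01. With the replicate block, 3 members were higher in each line and no call of a member changed.

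Counts in the other lists were less stable. Adherens genes called higher in EW8 went from 1 to 2 without EW8 vehicle replicate 2 or 3, EW8 doxycycline replicate 2 or 3, or TC71 vehicle replicate 1 or 3, and to 3 without EW8 doxycycline replicate 1. In TC71 they went from 0 to 1 without TC71 doxycycline replicate 1, and the transcription factors from 4 to 2 without TC71 vehicle replicate 3. The strict filter left 1 tight or gap junction gene higher in each line. With 3 libraries per group, changes in the 4 cadherins within the floor of 6 counts were not detectable at this depth. No library held more than 6 counts of any of them.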
